A study of Drosophila melanogaster with 9 samples.

Results

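The genes followed here, in Drosophila melanogaster S2 cells, serve glutathione synthesis and antioxidant defence. The list was Gclc, Gtpx, Mrp4, Prx6c, Sod1, Sod2, Sod3, Cat, Keap1 and cnc. They were found by their symbols in the platform's annotation, which gave 9 of the 10 listed genes at least 1 probe set of their own, out of 11573 genes so represented on the array. These 9 genes had 11 probe sets, and 8 of the genes were measured on enough arrays to be tested. Sod1 was not analysed here.

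S2 cells are an embryo-derived line with features of hemocytes, the blood cells of the fly. The 9 Drosophila Genome 2.0 arrays fell into 3 groups of 3: cells left untreated, cells given double-stranded RNA (dsRNA) against LacZ, a bacterial gene that the fly lacks, and cells in which dsRNA was aimed at the negative elongation factor NELF, a complex that keeps RNA polymerase II paused just past gene starts. The labels name NELF-B and NELF-E as the targeted subunits, and both dsRNA treatments lasted 72 hours. All groups were of the same line in the same serum-supplemented medium. Whether replicate arrays came from separate cultures is not labelled; the p-values therefore reflect only variation among these samples, possibly of technical origin.

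Glutathione is the main low-molecular-weight thiol of animal cells. Its synthesis starts with glutamate-cysteine ligase, and glutathione S-transferases attach it to reactive compounds, which ATP-binding cassette transporters of subfamily C can carry out of the cell. Superoxide dismutases turn superoxide into hydrogen peroxide, which catalase, peroxidases and peroxiredoxins remove. A long isoform of cnc is the fly counterpart of mammalian Nrf2, a transcription factor that drives many of these genes, and Keap1 holds it in check by passing it to a ubiquitin ligase.

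Values are the deposited intensities on a log2 scale, so that a difference of 1 is a doubling. A detection limit of 3.77 was set at the 95th percentile of the control probe sets. Of 17899 probe sets, between 13854 and 14196 had a value on an array. The probe set of NELF-B read 7.41, 7.47 and 7.63 after LacZ dsRNA and 4.76, 4.83 and 4.54 after NELF dsRNA, a 6.92-fold lower mean (limma, adjusted p = 2.97e-08). Nelf-E was at least 15.8-fold lower (adjusted p = 8.93e-08), its NELF dsRNA mean lying below the limit. Hemocyte markers were above the limit on at least 5 arrays for 7 of 9 genes, but NimC1 had group means of 1.67, 2.61 and 3.07 in untreated, LacZ dsRNA and NELF dsRNA cells. Of these 9 markers, 1 rose and 1 fell in each comparison of NELF dsRNA. Of all genes, 1.93% rose and 3.32% fell against LacZ dsRNA, and 2.78% and 4.31% against untreated cells. The marker eater fell in both, with group means of 6.81, 6.56 and 3.90 (adjusted p = 0.000685 against LacZ dsRNA), while Pxn rose 1.85-fold against LacZ dsRNA (adjusted p = 0.000131) and srp rose by 0.34 on the log2 scale against untreated cells (adjusted p = 0.0357). Over the 9 markers the median log2 difference of NELF dsRNA was -0.01 from LacZ dsRNA and 0.34 from untreated cells. It was also 0.34 for LacZ dsRNA against untreated cells. The part of such shifts in the values below was not tested. No marker of muscle, fat body, germline or gut passed the limit on 5 arrays, while 1 of 2 neuronal markers, elav, did, with group means of 6.73, 6.44 and 6.38. Only 1 muscle, 3 fat body, 2 germline and 1 gut marker had a probe set. In a culture measured in bulk, fewer cells of a kind and less RNA per cell cannot be told apart.

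After NELF dsRNA, 3 of the 8 tested genes rose against LacZ dsRNA and none fell. They were Gclc, the catalytic subunit of glutamate-cysteine ligase, Mrp4, a subfamily C transporter, and Gtpx, a peroxidase of the glutathione peroxidase family. Over all genes tested, 1.93% rose and 3.32% fell in that comparison. At an unadjusted p below 0.05, 4 of the 8 were higher and 0 lower, where 7.84% of all genes were higher and 9.14% lower. The median log2 difference was 0.25 over the 8 genes and 0.00 over the 9036 genes tested. The genes were chosen with earlier results of these data known. The shares here and in the other comparisons therefore describe these genes and do not test for an excess.

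**Figure D1:**
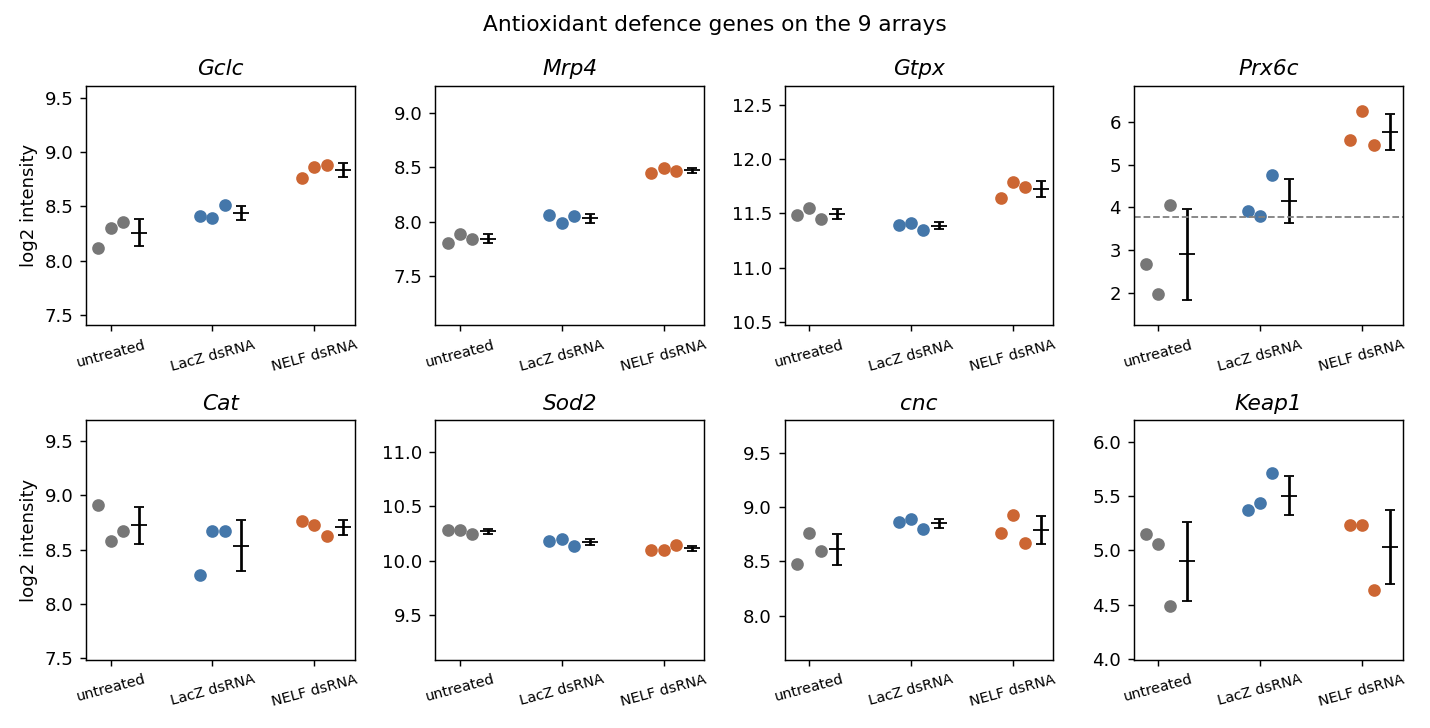
Log2 intensity (y axis) of each gene with a tested probe set on the 3 arrays of each group (x axis). Points are arrays, and the dash beside them is the group mean with a bar for the standard deviation of the group's arrays. Each panel has its own y range. For Gclc, Mrp4, Gtpx and Prx6c all 3 NELF dsRNA arrays lie above all 6 others, while Sod2, Cat, Keap1 and cnc show no such separation upward. Between LacZ dsRNA and untreated arrays, 4 of the 8 genes were higher and 2 lower with no overlap. The share of all genes separated in these ways was not computed.

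Gclc (probe set 1625362_at) makes the first, rate-limiting peptide bond of glutathione. Its log2 intensity was 8.12, 8.30 and 8.36 in untreated cells, 8.41, 8.39 and 8.51 after LacZ dsRNA and 8.76, 8.86 and 8.88 after NELF dsRNA. The 3 groups did not overlap, with the NELF dsRNA arrays highest and the untreated arrays lowest. Against LacZ dsRNA the level rose by 0.39 on the log2 scale (SE 0.08), or 1.31-fold, with limma's adjusted p = 0.0121 and a 95% interval of 0.21 to 0.57. Against untreated cells the rise was 1.49-fold (SE 0.08 on the log2 scale, adjusted p = 0.000435). The call against LacZ dsRNA was lost without LacZ dsRNA array 2 (adjusted p = 0.0595), NELF dsRNA array 2 (0.0518) or NELF dsRNA array 3 (0.0511), and without a mean-variance trend (0.109). Among the 5981 genes above the detection limit in both groups, 4.43% had an upward difference at least as large as that of Gclc.

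Gclm, the modifier subunit that pairs with the Gclc protein, was picked out after its values were seen. Its means were 7.91, 7.88 and 7.89 in untreated, LacZ dsRNA and NELF dsRNA cells, and its log2 difference between NELF dsRNA and LacZ dsRNA was 0.00 (limma, adjusted p = 0.991). The difference between the responses of the 2 subunits was not tested.

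Mrp4 (1637439_at) belongs to the transporters that, in mammals, export organic anions and glutathione conjugates. Its log2 intensity was 7.80, 7.89 and 7.84 in untreated cells, 8.06, 7.98 and 8.06 after LacZ dsRNA and 8.45, 8.50 and 8.47 after NELF dsRNA. The ranges of the 3 groups were apart from one another, in the same order as for Gclc. The rise over LacZ dsRNA was 0.44 (SE 0.08), or 1.36-fold (limma, adjusted p = 0.0031, 95% interval 0.27 to 0.61), and the rise over untreated cells was 1.54-fold (adjusted p = 0.000109). Both calls held in all 19 alternatives tried, with adjusted p between 0.00192 and 0.0259 against LacZ dsRNA. An upward difference as large was found in 3.53% of the genes above the limit in both groups.

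Gtpx (1628257_s_at) encodes a glutathione peroxidase homolog that in flies draws its electrons from thioredoxin. It read 11.48, 11.55 and 11.45 in untreated cells, 11.40, 11.41 and 11.35 after LacZ dsRNA and 11.64, 11.79 and 11.74 after NELF dsRNA. Here the LacZ dsRNA arrays were the lowest and the NELF dsRNA arrays the highest, again with no overlap. The log2 rise over LacZ dsRNA was 0.34 (SE 0.06), or 1.26-fold (limma, adjusted p = 0.00194), and the rise over untreated cells was 0.23, or 1.17-fold (adjusted p = 0.0259). Without a mean-variance trend neither call held (adjusted p of 0.0912 and 0.2). The call against untreated cells was also lost without NELF dsRNA array 2 (0.106), NELF dsRNA array 3 (0.0889), untreated array 1 (0.0957) or untreated array 3 (0.114). Of the genes above the limit in both groups, 6.47% had an upward difference from LacZ dsRNA at least as large.

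Prx6c (1633471_at) is a peroxiredoxin of the kind with a single catalytic cysteine. It was dim, at 2.66, 1.98 and 4.06 in untreated cells, 3.91, 3.79 and 4.74 after LacZ dsRNA and 5.58, 6.25 and 5.46 after NELF dsRNA. All NELF dsRNA arrays were above all others, LacZ dsRNA overlapped with untreated cells, and 1 of 3 untreated arrays exceeded the detection limit. Against untreated cells it rose at least 3.98-fold, with the untreated mean set at the limit (limma, adjusted p = 0.00195), and this call held in all 19 alternatives. Against LacZ dsRNA the mean was 1.61 higher on the log2 scale (SE 0.50), or 3.06-fold, which did not pass (adjusted p = 0.0923, 95% interval 0.55 to 2.67). That comparison passed when only the 2 groups compared entered the fit (adjusted p = 0.0117), without untreated array 2 (0.0448) and without untreated array 3 (0.0377). A further probe set is annotated to Prx6b, CG12896 and Prx6c together and was not used, and signal from these closely related copies in the Prx6c probe set was not tested.

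**Figure D2:**
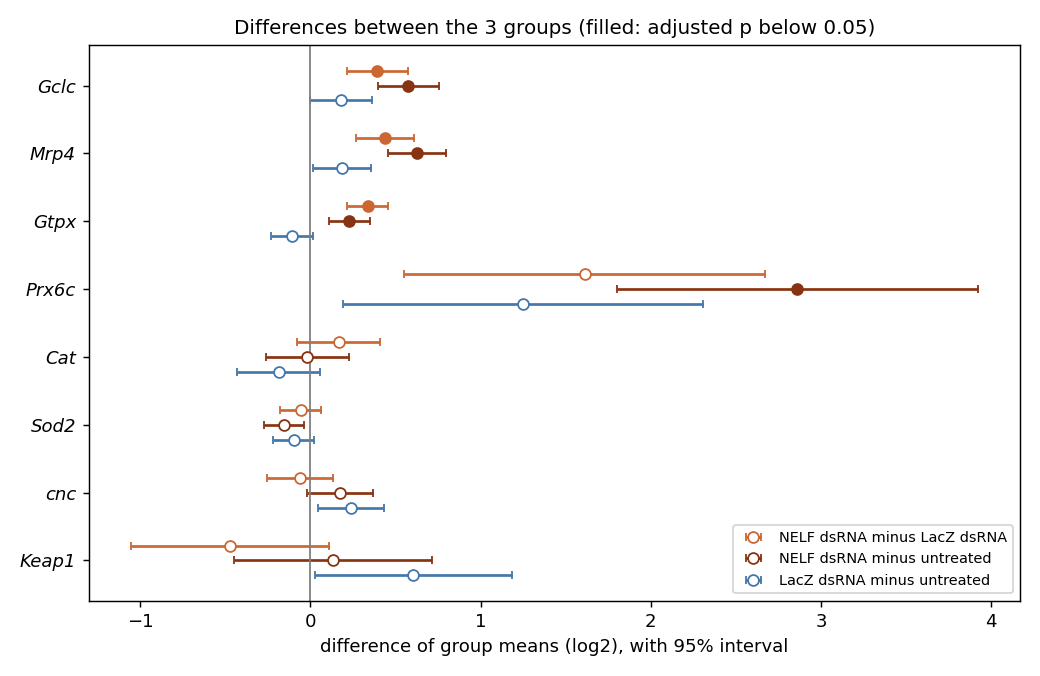
Fitted log2 differences (x axis) with 95% intervals for the 8 tested genes (y axis) in the 3 comparisons; filled points passed an adjusted p of 0.05. Gclc, Mrp4 and Gtpx are filled in both comparisons of NELF dsRNA, Prx6c only against untreated cells, and no point is filled for LacZ dsRNA against untreated cells.

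Neither Sod2 nor Cat, the tested superoxide dismutase and the catalase, passed in any comparison. Sod2 (1622984_at), the mitochondrial superoxide dismutase, read 10.28, 10.28 and 10.24 in untreated cells, 10.18, 10.20 and 10.14 after LacZ dsRNA and 10.10, 10.10 and 10.14 after NELF dsRNA. The NELF dsRNA arrays were below all untreated arrays and overlapped with LacZ dsRNA. The LacZ dsRNA arrays, too, were all below the untreated ones. The log2 difference between NELF dsRNA and untreated cells was -0.15 (SE 0.06, limma, adjusted p = 0.144, unadjusted p = 0.015), and against LacZ dsRNA it was -0.06 (adjusted p = 0.726, 95% interval -0.18 to 0.06).

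Cat (1639480_at), the catalase, read 8.91, 8.58 and 8.67 in untreated cells, 8.26, 8.67 and 8.68 after LacZ dsRNA and 8.76, 8.73 and 8.63 after NELF dsRNA. The 3 groups overlapped, with LacZ dsRNA array 1 the lowest of the 9. Its log2 difference between NELF dsRNA and LacZ dsRNA was 0.17, with a 95% interval of -0.08 to 0.41 (limma, adjusted p = 0.574). Sod3, an extracellular copper-zinc superoxide dismutase, was not above the limit on any array. Its brighter probe set (1622906_at) had values of 1.74, 2.79 and 2.20 on the untreated arrays, 2.88 on 1 LacZ dsRNA array and 0.48 on 1 NELF dsRNA array, too few for a test. The other (1636961_a_at) had a value on 1 untreated and 1 NELF dsRNA array.

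The pair of regulators did not pass in any comparison either. The log2 intensity of cnc (1633379_s_at) was 8.47, 8.76 and 8.60 in untreated cells, 8.86, 8.89 and 8.80 after LacZ dsRNA and 8.76, 8.93 and 8.67 after NELF dsRNA. The NELF dsRNA arrays overlapped with both other groups, and the LacZ dsRNA arrays lay above the untreated ones. The log2 difference between NELF dsRNA and LacZ dsRNA was -0.06, with a 95% interval of -0.26 to 0.13 (limma, adjusted p = 0.82), and between NELF dsRNA and untreated cells 0.18, with an interval of -0.02 to 0.37 (adjusted p = 0.346). A dim second probe set (1636746_at) had values on 5 arrays, all below the limit. The annotation names the gene and not which isoforms of cnc the probe sets read.

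Keap1 (1633773_s_at) read 5.15, 5.06 and 4.48 in untreated cells, 5.37, 5.44 and 5.71 after LacZ dsRNA and 5.23, 5.23 and 4.64 after NELF dsRNA. The LacZ dsRNA arrays were the 3 highest, and the other 2 groups overlapped. NELF dsRNA cells differed from LacZ dsRNA cells by -0.47 on the log2 scale, with a wide interval of -1.05 to 0.11 (limma, adjusted p = 0.474), and from untreated cells by 0.13 (adjusted p = 0.87).

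Against untreated cells, 4 of the 8 tested genes rose after NELF dsRNA, namely Gclc, Mrp4, Gtpx and Prx6c, and none fell. In all genes tested in that comparison 2.78% rose and 4.31% fell. At an unadjusted p below 0.05 the same comparison had 4 genes higher and 1, Sod2, lower, beside 9.02% and 10.5% of all genes. The NELF dsRNA arrays enter both comparisons, so the calls of one are not independent of the other's.

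LacZ dsRNA against untreated cells compares cells given dsRNA without a fly target with cells given none. Handling during the dsRNA treatment cannot be told apart from the dsRNA itself. None of the 8 genes passed in limma's test, where 0.0662% of all genes rose and 0.011% fell. At an unadjusted p below 0.05, 5 of the 8 were higher (Gclc, Mrp4, Prx6c, Keap1 and cnc) and 0 lower, where 5.48% of all genes were higher and 5.63% lower. The largest of these with both means above the limit was Keap1, with a log2 difference of 0.61 (95% interval 0.03 to 1.19, adjusted p = 0.453). The LacZ dsRNA mean of Prx6c lay 1.30-fold above the detection limit and its untreated mean below the limit, and the arrays of these groups overlapped. The fitted log2 difference of Prx6c was 1.25 (95% interval 0.19 to 2.30, adjusted p = 0.402). The difference was 0.18 for Gclc (adjusted p = 0.475), 0.19 for Mrp4 (adjusted p = 0.423) and 0.24 for cnc (adjusted p = 0.374), and that of Gtpx was -0.11 (95% interval -0.23 to 0.02). For Sod2 the difference was -0.10 (adjusted p = 0.591) and for Cat -0.19 (adjusted p = 0.611). The median over the 8 genes was 0.18, and over all genes -0.02.

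The arrays could also be asked about related genes, 71 in 6 lists, of which 59 had a probe set of their own and 50 were tested against LacZ dsRNA. Of these 50, 6 rose and 4 fell, beside 1.93% and 3.32% of all genes, with a median log2 difference of 0.06. Against untreated cells 8 of 51 rose and 6 fell, beside 2.78% and 4.31% of all genes. In LacZ dsRNA against untreated cells 0 of 49 passed in limma's test. At an unadjusted p below 0.05, 5 were higher and 4 lower there, beside 5.48% and 5.63% of all genes. The same shares apply to each list below. At an unadjusted p below 0.05 they were 7.84% higher and 9.14% lower against LacZ dsRNA, and 9.02% and 10.5% against untreated cells. These lists, too, were chosen with earlier results known, so their counts do not test for an excess.

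Among 14 regulators and targets of Cnc, 3 of 11 tested genes rose against LacZ dsRNA and 1 fell. Cyp6a2 of this list, picked out after its values were seen, had too few NELF dsRNA values for a test. It read 5.47, 3.86 and 4.48 in untreated cells and 1.09, 4.13 and 3.66 after LacZ dsRNA. After NELF dsRNA its only value was -0.89, on array 2. GstD1, a delta-class glutathione S-transferase, read 11.24, 11.21 and 11.15 after LacZ dsRNA and 12.09, 12.12 and 12.12 after NELF dsRNA. It rose 1.88-fold (log2 0.91, SE 0.06, limma, adjusted p = 8.93e-08), and 1.99-fold against untreated cells (adjusted p = 3.42e-08). GstD5, of the same class, rose 2.68-fold against LacZ dsRNA (SE 0.15 on the log2 scale, adjusted p = 2.77e-05) and 3.24-fold against untreated cells. Both calls of both genes held in all 19 alternatives. These transferases are closely related paralogs, and cross-hybridisation between them was not tested.

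The third rise was ref(2)P, the fly p62 autophagy receptor, at 1.35-fold (adjusted p = 0.0285, and 0.0366 against untreated cells). Without any one of LacZ dsRNA arrays 1 and 2 and NELF dsRNA arrays 1, 2 and 3 the first call was lost (adjusted p 0.0665 to 0.133), and the second was lost without any NELF dsRNA or untreated array (0.0794 to 0.111). Cyp6a8, a cytochrome P450, fell 1.86-fold against LacZ dsRNA (adjusted p = 0.0437) and by 1.49 on the log2 scale against untreated cells (adjusted p = 0.000899). Its call against LacZ dsRNA was lost on leaving out any array but NELF dsRNA array 3 (adjusted p 0.0522 to 0.132). Roc1a, a RING subunit of cullin ubiquitin ligases, rose against untreated cells (log2 0.86, adjusted p = 0.0257), with its LacZ dsRNA mean at 8.55 above its NELF dsRNA mean at 8.32. That call was lost without any one of the 3 untreated arrays or NELF dsRNA arrays 1 and 3 (adjusted p 0.0516 to 0.127).

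Among 16 genes of metal, superoxide and peroxide handling, 0 of 12 tested genes rose and 3 fell against LacZ dsRNA, and 4 fell against untreated cells. None was higher at an unadjusted p below 0.05 in either comparison. MtnA, a metallothionein that binds copper and cadmium, read 10.88, 10.79 and 10.85 after LacZ dsRNA and 9.98, 10.42 and 10.24 after NELF dsRNA, a 1.55-fold fall (limma, adjusted p = 0.00159). Irc, the immune-regulated catalase, fell 1.39-fold from 11.05, 11.28 and 11.42 to 10.78, 10.89 and 10.67 (adjusted p = 0.00303). The NELF dsRNA arrays were the lowest 3 for both genes. Both also fell against untreated cells (adjusted p of 0.00155 and 0.00384), and each call was lost without a mean-variance trend (adjusted p between 0.0851 and 0.127).

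Fer1HCH, the ferritin heavy chain, fell by 0.22 on the log2 scale against LacZ dsRNA (SE 0.05, limma, adjusted p = 0.0247) and by 0.35 against untreated cells (adjusted p = 0.000594). The first call was lost without LacZ dsRNA array 2 or 3 or NELF dsRNA array 1 or 3 (adjusted p 0.083 to 0.0994). Atox1, a copper chaperone, fell against untreated cells by 0.38 (adjusted p = 0.013), which was lost without NELF dsRNA array 1 (0.0623) or untreated array 2 (0.0646). Its difference from LacZ dsRNA was -0.28 (adjusted p = 0.091).

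In the other lists few genes passed. Without a mean-variance trend, GstD1 and GstD5 were the only related genes to keep their calls against LacZ dsRNA. Against untreated cells GstD1, GstD5, Cyp6a8 and the transporter rdog kept theirs. These losses come beside those named for single arrays. Of 15 thioredoxin and peroxiredoxin genes, 1 of 10 tested rose against LacZ dsRNA, the thioredoxin Trx2, at 1.16-fold (limma, adjusted p = 0.0489). That call was lost without any array but LacZ dsRNA array 1 (adjusted p 0.0584 to 0.165). Against untreated cells 2 of 9 rose, Trx2 (adjusted p = 0.012) and Srx, the sulfiredoxin that repairs over-oxidised peroxiredoxins, at 1.84-fold (adjusted p = 0.0387). The Trx2 call was lost without NELF dsRNA array 2 (0.0511) or untreated array 3 (0.0587), and the Srx call without any one of 6 arrays, namely LacZ dsRNA array 2, all 3 NELF dsRNA arrays and untreated arrays 1 and 3 (0.0534 to 0.157).

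Of 6 genes of NADPH supply, 1 of 4 tested rose against LacZ dsRNA, the NADP-dependent isocitrate dehydrogenase Idh, at 1.28-fold (limma, adjusted p = 0.0359), and none passed against untreated cells, where 1 was higher at an unadjusted p below 0.05. The Idh call was lost without LacZ dsRNA array 1 or 2 or NELF dsRNA array 1 or 2 (adjusted p 0.0844 to 0.169). Other settings ended it as well, with an adjusted p of 0.274 without a mean-variance trend. Of 8 further genes of glutathione synthesis and recycling, none of 4 tested passed against LacZ dsRNA, with 1 lower and 0 higher at an unadjusted p below 0.05. Cbs, the cystathionine beta-synthase that leads from homocysteine towards cysteine, fell 1.29-fold against untreated cells (adjusted p = 0.0237). Without NELF dsRNA array 3 or any 1 untreated array that call was lost (adjusted p 0.0558 to 0.101).

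Beside Mrp4, 12 transporters of subfamily C were listed. Against LacZ dsRNA 1 of 9 tested rose, rdog, from 9.15, 8.82 and 8.95 to 9.32, 9.36 and 9.39, or 1.31-fold (limma, adjusted p = 0.017). Against untreated cells 2 of 11 rose, rdog at 1.59-fold (adjusted p = 0.00015) and Cftr, a homolog of the human chloride channel, by 0.58 on the log2 scale (adjusted p = 0.0249). The rdog call against LacZ dsRNA was lost without LacZ dsRNA array 2 or 3 or NELF dsRNA array 2 or 3 (adjusted p 0.0501 to 0.0918), and the Cftr call without NELF dsRNA array 3 or untreated array 2 or 3 (0.0641 to 0.11).

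Likeness was sought among 6481 named probe sets measured on all 9 arrays with a mean above the limit. Those most like Gtpx were of CG2852 (Pearson r = 0.977 over 9 arrays), Alg2 (0.973) and CG12171 (0.962). Those most like cnc were mthl14 (0.928), vkg (0.927) and CG14545 (0.917). These correlations describe 9 arrays that share their group differences.

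**Figure D3:**
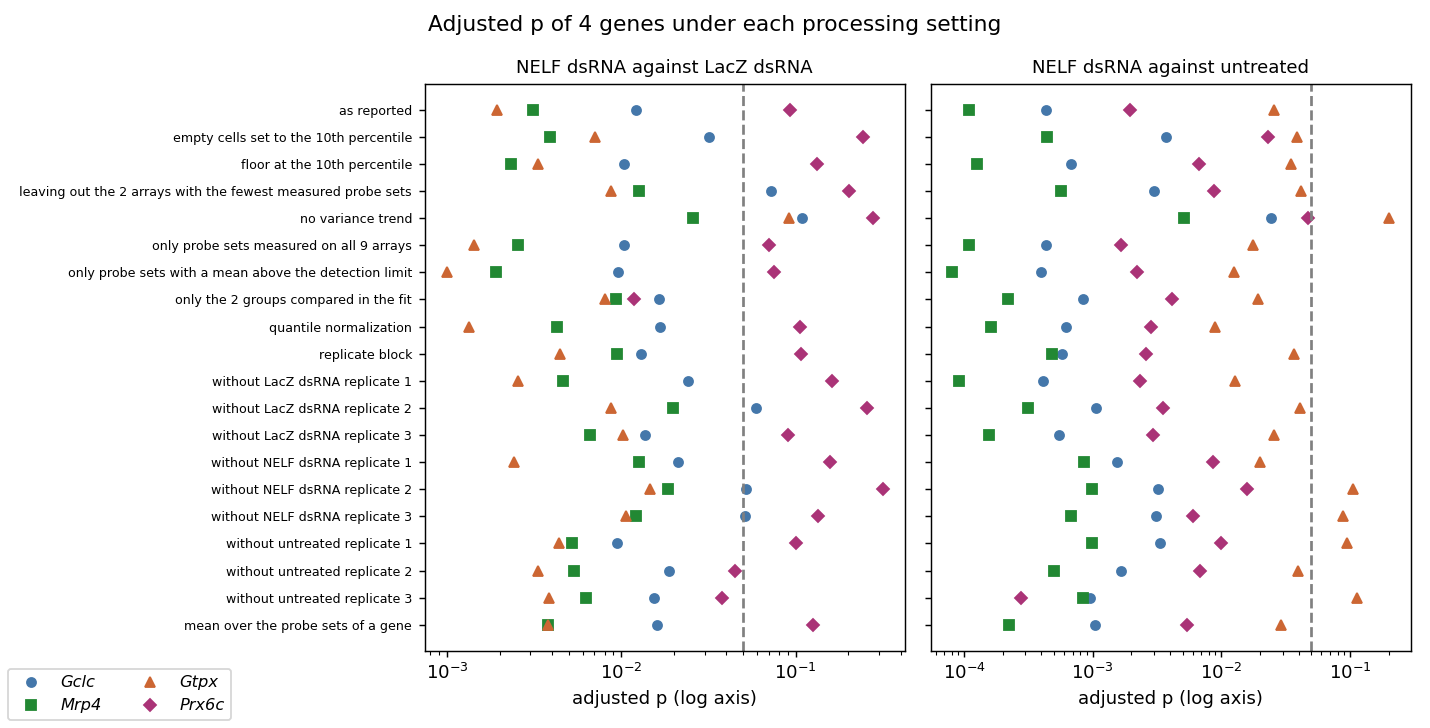
Adjusted p (x axis, log scale) of Gclc, Mrp4, Gtpx and Prx6c under each processing setting (y axis), for NELF dsRNA against LacZ dsRNA (left) and against untreated cells (right); the dashed line marks 0.05. Mrp4 stays left of the line in both panels, Prx6c lies right of it in most settings on the left and left of it in every setting on the right.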

How the data were processed

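RNA of 9 S2 cell samples was hybridised to 1-colour Affymetrix arrays, and the deposited values are log2 intensities per probe set, read from their range. Per the labels, scans were taken with GeneChip Operating Software and imported into Rosetta Resolver; how values were normalized is not given in the sources used here. Empty cells (21.2% of 161091) stayed empty. Array medians lay within 0.025, so no further scaling was made. Probe sets with 1 annotated gene (13086) were named, 12988 of them through RefSeq, and the brightest stood for a gene.

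Differences were fitted over all 9 arrays with limma 3.58.1 (R 4.3.3; lmFit, eBayes with a mean-variance trend), for probe sets with 2 values in each group, with Benjamini-Hochberg adjustment over all of them and a threshold of 0.05. The number of arrays limits the precision. The code was tested on simulated data. Members and lists were chosen with earlier results of these data known. Named were all members, the dsRNA targets, up to 4 related genes per list and comparison past the threshold, and the 3 most like 2 members. Gclm and Cyp6a2 were added after their values were seen.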

Additional observations from a re-analysis of the deposited data

How the results depend on the processing

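No called difference reversed. Uncalled ones of the 8 genes that turned sign were cnc with the mean over its probe sets, 1 of them below the limit (0.38 against LacZ dsRNA, -1.42 against untreated and -1.80 for LacZ dsRNA against untreated), Keap1 against untreated without untreated array 3 (-0.07), and Cat against untreated without NELF dsRNA array 3 (0.02) or untreated array 1 (0.08). In the comparisons of NELF dsRNA, the number of probe sets called moved most without a mean-variance trend. It was 228 against LacZ dsRNA (592 as reported), with 1 of the 8 genes rising (Mrp4) and, of the related genes, 2 rising and 0 falling. Against untreated it was 356 (799), with 3 related genes rising and 1 falling. The same setting gave 1 probe set for LacZ dsRNA against untreated (7), where other settings gave up to 22. With empty cells set to the 10th percentile, 2 related genes rose against LacZ dsRNA and 4 against untreated, and 1 probe set passed for LacZ dsRNA against untreated. With the mean over a gene's probe sets, 3 and 5 related genes rose. With only the 2 groups compared in the fit, 3 related genes rose and 2 fell against LacZ dsRNA, and 1 rose for LacZ dsRNA against untreated. That last comparison had 12 probe sets past the threshold among those above the detection limit, and 22 when the 2 arrays with the fewest measured probe sets (LacZ dsRNA array 1, NELF dsRNA array 3) were left out, an alternative chosen after seeing the data. It also ended the Gclc call against LacZ dsRNA (adjusted p = 0.0722) and turned cnc against LacZ dsRNA (0.00) and Cat against untreated (0.02).

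Leaving out 1 array at a time gave 426 to 697 probe sets against LacZ dsRNA, with 2 to 4 of the 8 genes rising, 0 falling, and 2 to 5 related genes rising and 2 to 4 falling. Against untreated it gave 534 to 996, with 3 to 4 rising, 0 falling, and 3 to 8 and 4 to 7 related genes. For LacZ dsRNA against untreated it gave 2 to 18, with 0 of the 8 genes, and 0 to 1 related gene rising and 0 falling. Related genes rising against LacZ dsRNA numbered 2 to 3 without LacZ dsRNA array 2 or any NELF dsRNA array, those falling 2 without LacZ dsRNA array 2 or 3 or NELF dsRNA array 1. Those rising against untreated numbered 5 without untreated array 1 or 2 or any NELF dsRNA array, and 3 without untreated array 3. The 1 related gene rising for LacZ dsRNA against untreated came without NELF dsRNA array 2. The 18 came without LacZ dsRNA array 1, and 2 to 3 without LacZ dsRNA arrays 2 or 3 or untreated arrays 2 or 3. Samples of the same number did not deviate together (correlations from -0.108 to 0.097), and a replicate block gave 531, 724 and 9 probe sets and changed no call of the 8 genes (Gclc adjusted p = 0.013, Prx6c 0.107, against LacZ dsRNA). With 3 arrays a group, small changes of dim genes could go undetected. Sod3 had too few values to be tested.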
